A study of Mus musculus with 37 samples.

Results

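Gene expression was compared between the untouched kidneys of 2 mouse lines that both served as controls in a study of kidney obstruction. The Twist-line controls were 3 mice of genotype ggt-cre-;Twist flox/flox on a mixed C57Bl/6 and sv129 background (mice 1, 2 and 3). The Snail-line controls were 3 mice of genotype ggt-cre-;Snail flox/flox on a mixed C57Bl/6 and Balb/c background (mice 8, 9 and 10). These 6 arrays were all contralateral kidneys of cre-negative floxed mice among the 37 arrays of the series, and they were chosen by genotype and kidney alone. All 6 mice were 10 weeks old, carried 2 floxed copies of a gene that no cre had deleted, and had had the ureter of the other kidney tied off. No sham-operated kidney and no unfloxed mouse of either line is among them, so the line, its strain background, its floxed locus and the chromosome around that locus cannot be told apart. The labels call both genotypes wild-type-like. The kidneys of cre-positive mice of the same lines (10 weeks old, contralateral and obstructed, and 26 weeks old, never operated, called healthy here) and of wild-type mice with or without cre (10 weeks old, C57Bl/6 and sv129) are used only where they show how far a line difference recurs. In the cre-positive mice a ggt-driven cre had removed Twist1 or Snai1 from proximal tubule cells, per the labels.

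When 2 inbred strains are crossed into a mixed stock, each mouse inherits its own mosaic of parental chromosome segments. Genes whose parental copies are transcribed, spliced or decayed differently then differ between mice of the same tissue, and a stretch selected together with an engineered allele can stay fixed in a line. The major histocompatibility complex (H2 in the mouse, on chromosome 17) is the best known such region: C57BL/6 mice and other mice of the H2 b haplotype do not make the alpha chain of the class II molecule I-E, encoded by H2-Ea, whereas Balb/c mice (H2 d) do.

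Levels are log2 intensities after background correction and quantile normalisation, and differences are Twist line minus Snail line. Detected probes numbered 17669 to 18456 on the Twist-line arrays and 17870 to 18815 on the Snail-line arrays. The raw 99th percentile signal was 4402 to 5522 in the Twist line and 6450 to 7932 in the Snail line, without overlap before normalisation, and its part in the results was not tested. The kidney label was borne out in both lines, with Slc34a1, the phosphate carrier of the proximal tubule, at 14.71 in Twist-line and 14.76 in Snail-line kidneys, and Umod, the main protein of the thick limb, at 14.48 in Twist-line and 14.18 in Snail-line kidneys. Xist, which is transcribed from an inactive X chromosome, was high in 1 of 3 mice of each line (mouse 1 at 8.93 and mouse 10 at 8.02, against 4.32 to 4.51 in the other 4). The labels give no sex. Whether the 3 mice of a line were littermates is not stated in the sources used here. The p-values rest on 1 spread per gene, pooled within the 12 groups of all 37 arrays, not on these 6 mice alone. Both kidneys of 12 mice are among those arrays.

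The lines differed at 1717 of 12866 genes (13.3% past an adjusted p of 0.05, limma with Benjamini-Hochberg adjustment), of which 936 were higher in the Twist line (7.27%) and 781 lower (6.07%). The arrays of the 2 groups did not overlap for 1633 of the 1717, where 32% of all genes did not overlap. The differences were mostly moderate: their median size was 1.67-fold, 385 genes (196 higher and 189 lower) exceeded 2-fold, and 29 (12 higher and 17 lower) exceeded 4-fold. The median over all genes was -0.0026. Without 1 array the count fell to 1088 (mouse 2) and 1121 (mouse 3) in the Twist line, and to 726 (mouse 8) and 1044 (mouse 10) in the Snail line. A model of these 6 arrays alone called 743 genes.

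Genes lower in the Twist line included several that were at the array floor there and clearly present in the Snail line. H2-Ea stood at 4.42, 4.47 and 4.47 in Twist-line kidneys and at 11.13, 10.44 and 10.05 in Snail-line kidneys. It was detected in 0 of 3 Twist-line and 3 of 3 Snail-line kidneys, and was at least 46.1-fold lower in the Twist line (log2 difference -6.09, SE 1.41, adjusted p = 0.00577). Here and below, "at least" marks a gene that no array of the lower group detected. Its fold is then taken against the dimmest detected probe on each of those arrays, unless its own signal was brighter. Tm7sf3, a multi-pass membrane protein, had 4.60, 4.34 and 4.62 in the Twist line and 8.55, 8.88 and 8.64 in the Snail line, which made it at least 12.8-fold lower (adjusted p = 0.000256). Dtd2, an enzyme that removes wrongly attached amino acids from tRNA, had 4.35, 4.42 and 4.43 in the Twist line and 7.63, 7.42 and 7.32 in the Snail line, at least 5.45-fold lower (adjusted p = 1.56e-10). None of the 3 Twist-line arrays detected any of these 3 genes.

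Other large decreases left a clear signal in both lines. Tomm22, the central receptor of the mitochondrial protein import pore, had 6.09, 6.05 and 6.01 in the Twist line and 10.35, 9.77 and 9.57 in the Snail line (14.4-fold lower, SE 0.26 on the log2 scale, adjusted p = 9.56e-11). Timmdc1, an assembly factor of respiratory complex I, had 7.41, 7.06 and 7.25 in the Twist line and 9.00, 9.72 and 9.63 in the Snail line (4.64-fold lower, adjusted p = 3.33e-08). Rtn4, which shapes the tubules of the endoplasmic reticulum, had 5.90, 5.56 and 4.95 in the Twist line and 8.23, 7.61 and 7.97 in the Snail line (5.52-fold lower). A second Rtn4 probe gave the same difference (-2.47), and another one, undetected in both lines, gave 0.02. Bckdhb, a subunit of the enzyme that breaks down branched-chain amino acids, was 4.49-fold lower (-2.17, SE 0.50), the histone gene H4c6 was 4.3-fold lower (-2.10, SE 0.44), the pro-apoptotic gene Bik 4.55-fold lower (-2.18, SE 0.56) and the cytochrome P450 Cyp2d12 4.51-fold lower (-2.17, SE 0.62). The 3 Twist-line values lay below the 3 Snail-line values for each of these genes. Bik did not pass without mouse 1, and Cyp2d12 did not pass without mouse 1, 8 or 10.

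Among genes with higher signal in the Twist line, Dctn1, the large subunit of the dynein activator dynactin, had 7.51, 7.70 and 7.44 in the Twist line and 4.43, 4.35 and 4.43 in the Snail line, where it was detected on 0 of 3 arrays. It was at least 6.01-fold higher (log2 difference 3.15, SE 0.34, adjusted p = 9.16e-07). Greb1, an oestrogen-responsive gene, had 8.71, 8.16 and 8.26 in the Twist line and 4.94, 5.16 and 5.61 in the Snail line (8.82-fold higher, adjusted p = 1.56e-05), and its other probe gave 3.02. Pygb, a glycogen phosphorylase, had 8.70, 8.31 and 8.37 in the Twist line and 5.66, 5.95 and 6.62 in the Snail line (5.22-fold higher, adjusted p = 2.96e-06). No Snail-line kidney reached the lowest Twist-line kidney in any of these genes. Msmo1, an enzyme of cholesterol synthesis, was 5.09-fold higher (2.35, SE 0.42), and Aldh1a1, a retinaldehyde dehydrogenase, 4.7-fold higher (2.23, SE 0.42). Cmss1 was at least 3.32-fold higher (2.03, SE 0.22), with 0 of 3 Snail-line arrays detected. Tmem63b, an ion channel subunit, was 4.33-fold higher (2.11, SE 0.57), Bach1, a haem-regulated repressor, 3.83-fold (1.94, SE 0.56), Trim7 3.7-fold (1.89, SE 0.44) and Rai1 3.6-fold (1.85, SE 0.40). Tmem63b did not pass without mouse 8, and Bach1 did not pass without mouse 1, 2 or 8. Bach1 had 8.45, 8.38 and 6.08 in contralateral kidneys of cre-positive Twist-line mice 4, 6 and 7. In the same order Tmem63b had 10.44, 10.59 and 7.83, Trim7 6.51, 6.36 and 4.41, and Rai1 7.05, 6.69 and 5.34. Healthy cre-positive Twist-line mice had 5.61 to 5.90 for Bach1 and 8.22 to 8.44 for Tmem63b. They had 4.27 to 4.39 for Trim7 and 4.82 to 4.98 for Rai1. Gpx6, a glutathione peroxidase, had 9.26, 9.61 and 9.34 in the Twist line but 8.38, 5.71 and 4.66 in the Snail line. Its mean difference of 3.15 (SE 0.95, adjusted p = 0.0266) therefore rested on mice 9 and 10. Of the 6 fits that left out an array, Gpx6 passed only in the one without mouse 8. Serpina3b, a protease inhibitor gene, had 4.36, 7.18 and 4.48 in the Twist line and 7.99, 7.67 and 9.21 in the Snail line (-2.95, SE 0.94, adjusted p = 0.0357), and of the same 6 fits it passed only without mouse 2 or mouse 9.

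**Figure D1:**
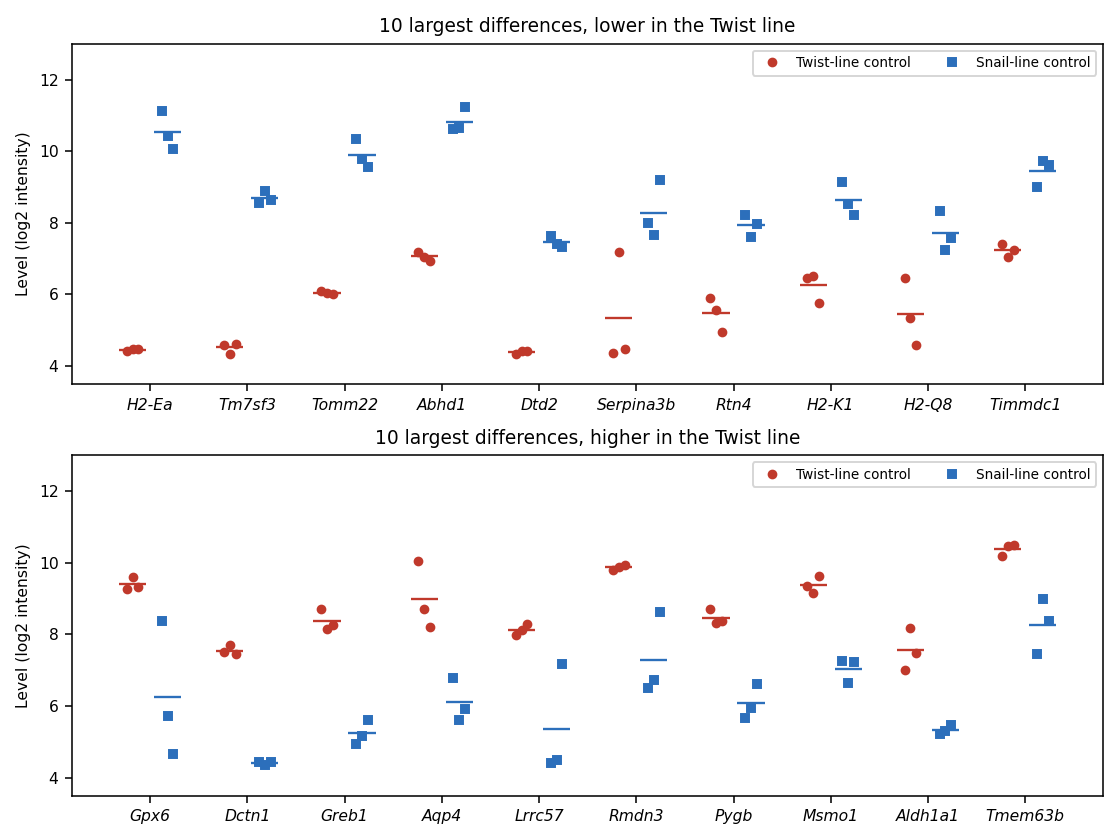
Level (log2 intensity) of the 10 genes with the largest difference in each direction, 1 point per kidney and a bar at the mean of 3, Twist-line controls (circles) left of Snail-line controls (squares). H2-Ea, Tm7sf3 and Dtd2 lie at the floor near 4.4 in the Twist line, Dctn1 lies there in the Snail line, and Gpx6, Lrrc57 and Rmdn3 scatter widely in the Snail line.

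A bead probe reads 1 short stretch of a transcript, and 811 of the 1717 genes had a further detected probe. All probes of a gene had the same sign in 485 of them (59.8%). Another probe had the same sign at an unadjusted p under 0.05 in 338, and the opposite sign at that level in 102. Of the 29 genes beyond 4-fold, 11 had a further probe, and in 7 all probes had the same sign. Abhd1 and Greb1 were among those whose probes had the same sign, while H2-K1, H2-Q8 and Rmdn3 had probes of opposite sign. H2-Ea, Tm7sf3, Dctn1 and Pygb each rest on a single probe. Cald1, a regulator of actin and myosin, was at least 1.82-fold lower in its brightest probe (-1.38, SE 0.22), which no Twist-line array detected, and differed by -0.22 to 0.25 in 4 others at or near the floor. Pknox1 differed by -1.0 (SE 0.17) in one probe and by 0.20 in the other. Whether sequence differences between the lines under a probe contribute was not tested, because probe sequences were not used here.

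H2-Ea, H2-K1, H2-Q6 and H2-Q8, antigen-presentation genes of chromosome 17, were among the largest differences. The other tested H2 genes did not pass. Of all tested genes on chromosome 17, 13.5% passed, beside 13.3% of all genes. MHC class I molecules display peptides of the cell's own proteins to cytotoxic T cells and are induced by interferon through a short element in their promoters. MHC class II molecules display captured peptides to helper T cells, and a Y box, an inverted CCAAT element, is a known element of class II promoters. The promoter windows below, RefSeq GRCm38.p6, cover 300 bases around the annotated start, 5′ to 3′ on the gene's strand. They are shown because H2-K1 and H2-Q6 were both lower in the Twist line, and because H2-Aa and H2-Eb1 are class II genes that did not pass the test while H2-Ea did. Capitals mark the interferon-type letters TTTCACTTC and the Y-box letters CTGATTGG, which read CCAATCAG where they lie on the other strand. H2-K1 and H2-Q6 hold both motifs, and H2-Aa and H2-Eb1 hold the Y-box letters but not the interferon-type letters. The windows lie at chr17:34000298-34000597 (minus strand), chr17:35424600-35424899 (plus strand), chr17:34287774-34288073 (minus strand) and chr17:34305617-34305916 (plus strand), in the order printed.
H2-K1: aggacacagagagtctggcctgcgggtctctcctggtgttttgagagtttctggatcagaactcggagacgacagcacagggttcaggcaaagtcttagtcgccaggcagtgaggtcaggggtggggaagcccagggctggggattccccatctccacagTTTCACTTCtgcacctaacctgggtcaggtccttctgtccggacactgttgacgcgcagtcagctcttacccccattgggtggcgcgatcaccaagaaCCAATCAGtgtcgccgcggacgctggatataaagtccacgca
H2-Q6: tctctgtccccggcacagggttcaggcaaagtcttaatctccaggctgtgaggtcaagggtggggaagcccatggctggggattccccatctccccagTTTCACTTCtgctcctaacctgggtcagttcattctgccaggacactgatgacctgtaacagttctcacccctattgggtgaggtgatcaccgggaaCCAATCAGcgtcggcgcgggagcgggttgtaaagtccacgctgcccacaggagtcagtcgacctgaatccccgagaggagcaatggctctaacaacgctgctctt
H2-Aa: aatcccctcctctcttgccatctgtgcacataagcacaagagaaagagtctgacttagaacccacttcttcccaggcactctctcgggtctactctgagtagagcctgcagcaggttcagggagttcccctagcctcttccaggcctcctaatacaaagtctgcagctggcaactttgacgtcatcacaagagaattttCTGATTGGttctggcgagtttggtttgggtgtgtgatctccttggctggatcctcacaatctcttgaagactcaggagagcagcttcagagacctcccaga
H2-Eb1: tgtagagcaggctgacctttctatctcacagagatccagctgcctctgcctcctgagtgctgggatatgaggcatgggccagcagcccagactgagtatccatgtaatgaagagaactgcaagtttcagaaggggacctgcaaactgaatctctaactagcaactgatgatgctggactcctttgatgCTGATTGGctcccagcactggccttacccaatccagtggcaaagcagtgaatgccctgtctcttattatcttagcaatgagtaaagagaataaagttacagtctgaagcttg
Both motifs were searched on both strands, and they do not overlap in these windows. Of 32851 promoter windows of this length, 0.505% held TTTCACTTC and 4.1% held CTGATTGG. Of 25 tested H2 genes, 18 had a window, and 5 of these 18 held the first motif and 11 the second. The Y-box letters were not particular to class II, as 7 of 9 class I-type genes and 4 of 8 class II genes held them. The interferon-type letters were in 5 of the 9 class I-type windows and in 0 of the 8 class II windows.

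Of 22 measured genes of MHC class I and antigen processing, 7 were lower in the Twist line (31.8%, beside 6.07% of all genes) and 0 were higher. The list's median difference was -0.28, beside -0.0026 for all genes, and its summed level was 16830 to 20996 in the Twist line and 24049 to 27195 in the Snail line. In deleted mice the list's median was -0.06 in contralateral and 0.40 in healthy kidneys, where 1 and 0 members passed. H2-K1, a classical class I heavy chain, had 6.47, 6.52 and 5.78 in the Twist line and 9.15, 8.52 and 8.22 in the Snail line (5.17-fold lower, SE 0.75 on the log2 scale, adjusted p = 0.0336). H2-Q6, a class I chain of the Q region, had 6.69, 6.66 and 6.61 in the Twist line and 9.39, 8.44 and 8.41 in the Snail line (4.27-fold lower, adjusted p = 0.0382), and its second probe gave -2.26. H2-Q8, another Q-region chain, had 6.46, 5.34 and 4.59 in the Twist line and 8.33, 7.25 and 7.57 in the Snail line (4.76-fold lower, adjusted p = 0.00212). No Twist-line kidney reached the lowest Snail-line kidney in any of the 3. Whether probes for these closely related chains cross-read was not tested. A second probe gave 0.45 for H2-K1 and 0.42 for H2-Q8. H2-K1 and H2-Q6 lost their calls without any 1 of the 6 arrays (H2-K1 -2.58 to -2.11, H2-Q6 -2.26 to -1.77), while H2-Q8 kept its call in each. Across the whole series both genes split by mouse. In Twist-line mice 1 to 6 H2-K1 was at or below 6.93 and H2-Q6 at or below 7.04. In all other mice they were at or above 7.71 and 8.04. Those others include deleted Twist-line mouse 7, the healthy deleted Twist-line mice and the wild-type mice. The part of this split in the lost calls was not tested. Psmb8, a catalytic subunit of the immunoproteasome, was 2.56-fold lower (-1.36, SE 0.36), and Tapbp, which loads peptide onto class I, 2.26-fold lower (-1.18, SE 0.32). Psmb8 did not pass without mouse 3 or 8, and Tapbp did not pass without mouse 1 or 8. A second Tapbp probe, detected on all 6 arrays, gave -0.18 (SE 0.37), and the mean of its probes did not pass. A second Psmb8 probe gave -0.70 (SE 0.27). B2m, the light chain of class I (-0.69, SE 0.22), and the peptide transporter gene Tap2 (-0.70, SE 0.23), named after their values were seen, were the others that passed. H2-D1 (-0.30, SE 0.23) and H2-Q7 (0.21, SE 0.33), whose promoter windows hold the same 9 letters as H2-K1 and H2-Q6, did not pass.

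Of 12 measured class II genes, H2-Ea was the only one past the threshold (8.33% of the list, beside 13.3% of all genes, and 6.07% for lower calls). H2-Eb1, which encodes the I-E beta chain, the partner of the H2-Ea product, stood at 10.27, 10.15 and 9.46 in the Twist line and at 9.89, 10.43 and 9.72 in the Snail line (-0.05, SE 0.35), and the groups overlapped. Cd74, the class II chaperone, stood at 10.67 ± 0.39 in the Twist line and 11.04 ± 0.33 in the Snail line (SD, n = 3 each), a difference of -0.36 (SE 0.29, adjusted p = 0.437). A dimmer Cd74 probe, detected on all 6 arrays, differed by -1.09 (SE 0.35, adjusted p = 0.0351 over all probes). H2-DMa, a subunit of the peptide exchanger of class II, gave -0.58 (SE 0.28) in its brightest probe and -1.17 (SE 0.34, adjusted p = 0.0203 over all probes) in another detected on all 6. H2-Aa, the alpha chain of the other class II molecule, I-A, had 8.48, 7.76 and 7.69 in the Twist line and 4.58, 8.61 and 8.13 in the Snail line. Mouse 8 was the only one of the 6 with H2-Aa at the floor, and it had the highest H2-Ea signal. H2-Ab1, the I-A beta chain, gave -0.87 (SE 0.47, adjusted p = 0.226) in its brightest probe and -0.14 in another. The third H2-Ab1 probe followed H2-Aa, with 10.86, 10.61 and 9.95 in the Twist line and 5.04, 10.20 and 9.59 in the Snail line.

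Over all 37 arrays these class II signals fell into low and high mice with a wide gap. H2-Ea was at or below 4.81 in 6 mice and at or above 9.68 in 19. The 6 low mice were the 3 Twist-line controls and 3 of the 4 obstructed Twist-deleted mice (mice 4, 5 and 6). Mouse 7 of the same group had 11.24 in its contralateral and 12.89 in its obstructed kidney, the healthy Twist-deleted mice had 10.60 to 10.97, and the 6 wild-type mice had 9.68 to 10.73 although their labels give the background of the Twist line. All 9 Snail-line mice had H2-Ea, from 10.05 to 14.11. H2-Aa was at or below 5.73 in 11 mice and at or above 7.47 in 14, and the varying H2-Ab1 probe placed all 25 mice on the same side as H2-Aa. In 6 mice H2-Ea was low and H2-Aa high, in 11 H2-Ea was high and H2-Aa low, in 8 both were high, and in 0 both were low. Both kidneys of a mouse lay on the same side in each of 12 mice with 2 arrays.

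**Figure D2:**
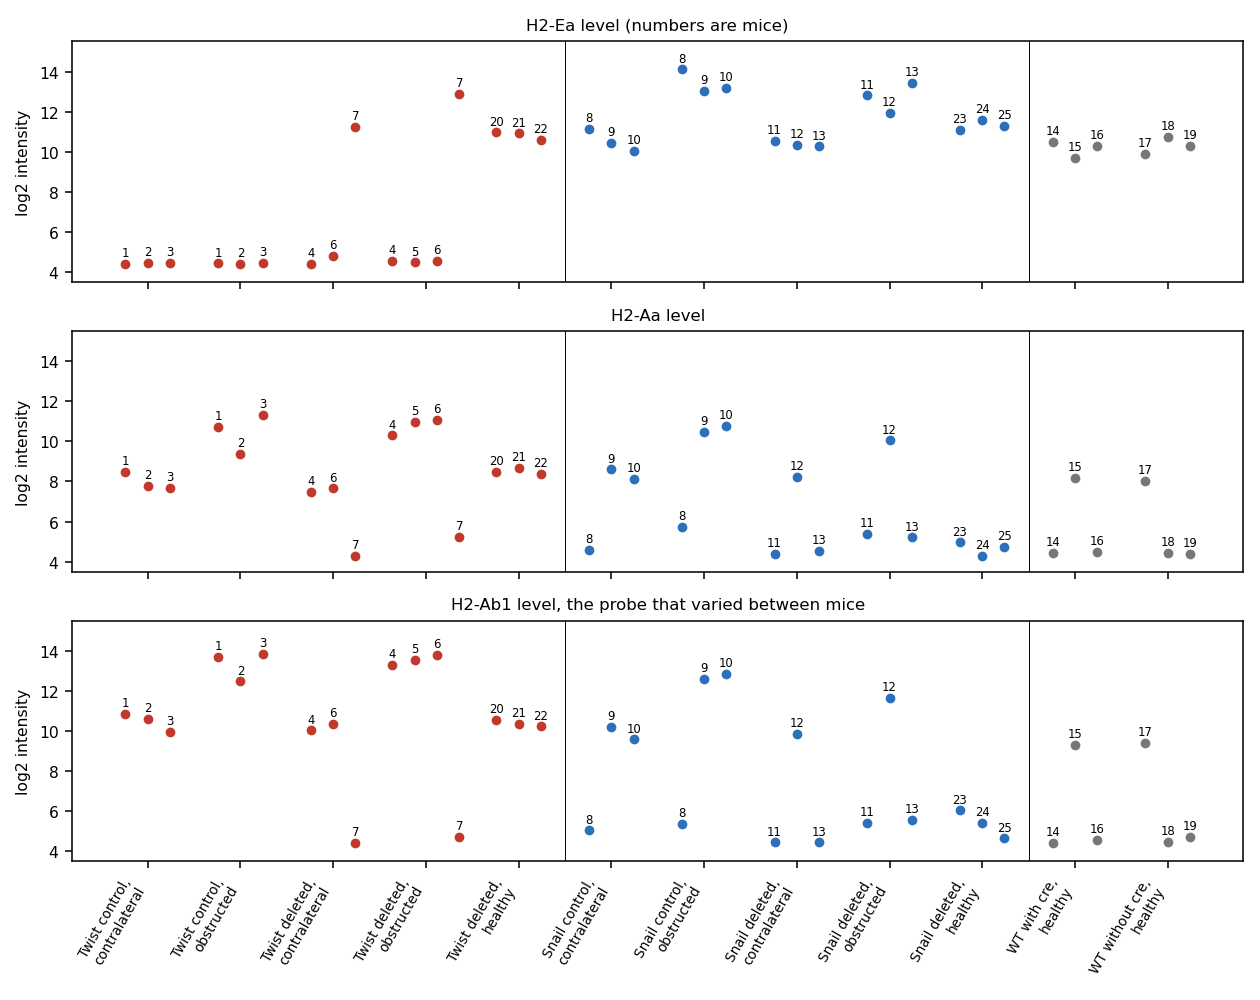
Level (log2 intensity) of H2-Ea, H2-Aa and the varying probe of H2-Ab1 in each of 37 arrays, labelled by mouse number, with Twist-line groups left of Snail-line groups and wild-type groups at the right. Mice 1 to 6 lie at the floor for H2-Ea, and H2-Aa and the H2-Ab1 probe are low in the same 11 mice, mouse 8 among them.

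The size of the H2-Ea difference varied with the set of mice. It was -9.01 (SE 1.41) in the obstructed kidneys of the same controls, -3.56 (adjusted p = 0.169) in contralateral kidneys of deleted mice and -0.49 (adjusted p = 0.948) in healthy deleted mice. Abhd1, a hydrolase gene of chromosome 5, showed the same kind of pattern. It stood at 7.19, 7.05 and 6.95 in the Twist-line controls and at 10.62, 10.64 and 11.22 in the Snail-line controls (13.6-fold lower, SE 1.23 on the log2 scale, adjusted p = 0.0409), and 2 other probes gave -3.51 and -3.53. In the deleted mice of both lines high and low mice were mixed, so that the contralateral difference was -0.16 (adjusted p = 0.971). Wild-type mice with cre had 7.25 to 7.35, and those without cre had 10.71 to 11.58. Abhd1 lost its call without any 1 of the 6 arrays (-3.87 to -3.57).

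On chromosome 2, Rmdn3, Pla2g4b and Lrrc57 were high in all Twist-line controls and in Snail-line mouse 10, and low in Snail-line mice 8 and 9. Lrrc57, a leucine-rich repeat gene, had 7.97, 8.14 and 8.29 in the Twist line and 4.40, 4.49 and 7.19 in the Snail line (6.83-fold higher, SE 0.47 on the log2 scale, adjusted p = 0.000632). Pla2g4b, a cytosolic phospholipase A2, had 7.21, 7.57 and 7.29 in the Twist line and 4.93, 4.60 and 6.82 in the Snail line (3.75-fold higher, adjusted p = 0.00156). Rmdn3, which tethers mitochondria to the endoplasmic reticulum, had 9.79, 9.87 and 9.95 in the Twist line and 6.49, 6.72 and 8.64 in the Snail line (6.01-fold higher, SE 0.73, adjusted p = 0.019). The same 2 mice were low in their obstructed kidneys, at 4.34 and 4.40 for Lrrc57. In chromosome order these are tested genes 545 (Rmdn3), 569 (Pla2g4b) and 580 (Lrrc57) of 1017. Other Rmdn3 probes gave -0.66 and 0.23, and Rmdn3 passed in 2 of the 6 fits without an array, the 4 that lost it being those without mouse 2, 3, 8 or 9. Lrrc57 and Pla2g4b passed in all 6. With only the 6 compared arrays in the model, whose Snail-line values are split, neither passed (adjusted p = 0.0637 for Lrrc57 and 0.0802 for Pla2g4b).

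**Figure D3:**
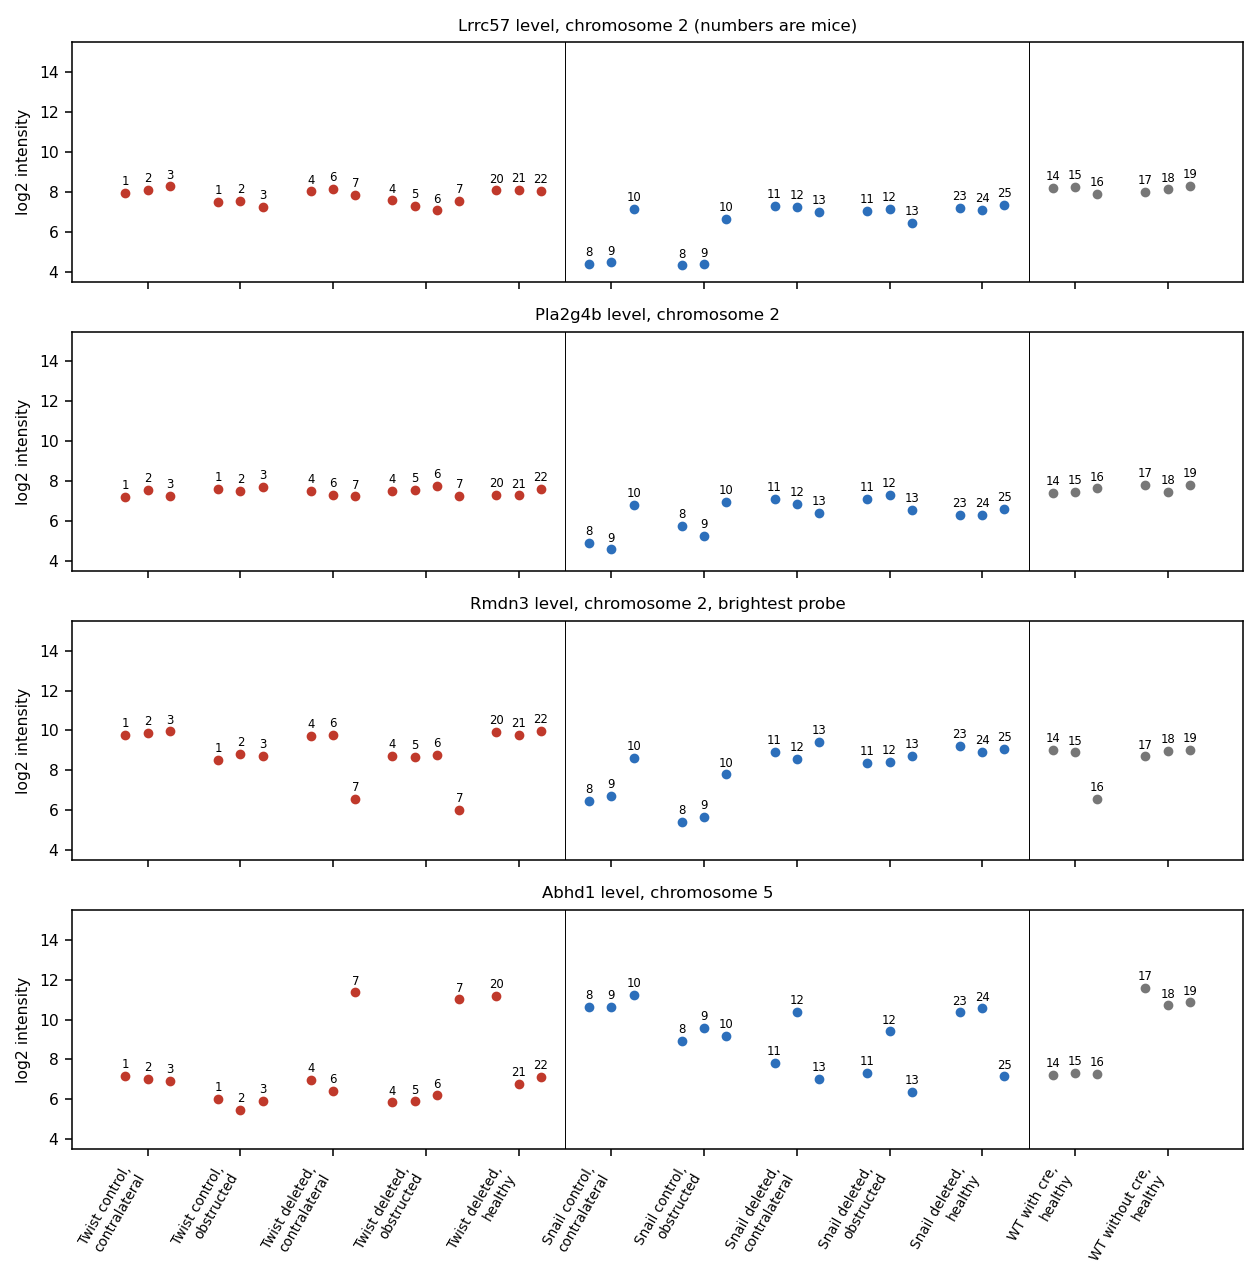
Level (log2 intensity) of Lrrc57, Pla2g4b, Rmdn3 and Abhd1 in each of 37 arrays, labelled by mouse number, with Twist-line groups left of Snail-line groups and wild-type groups at the right. Mice 8 and 9 are low in both kidneys for the 3 genes of chromosome 2, and Abhd1 is high in some mice of every line.

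How far the differences recur in other mice of the same lines was read from the deleted mice, which share no mouse with the controls (3 contralateral and 3 healthy kidneys per line). As in the controls, the raw 99th percentile signal of their contralateral arrays did not overlap. It was 4113 to 5145 in the Twist line and 5634 to 6985 in the Snail line. Healthy arrays had 6436 to 6885 and 6896 to 8941. The part of signal strength or array batch in the recurrence was not tested. In contralateral kidneys of deleted mice 232 genes differed between the lines (1.8%), and 176 of them differed with the same sign in the controls. These were 75.9% of the calls in deleted mice and 10.3% of those in controls. Of the 1717 control calls, 97.3% had the same sign in the deleted mice, beside 76.7% of all genes, with medians of 0.46 for the genes that were higher in control kidneys of the Twist line (0.73 in the controls themselves) and -0.46 for those that were lower (-0.76 in the controls). A test of the difference between the controls' and the deleted mice's line effects called 0 genes (0%, limma, and 366 at an unadjusted p under 0.05). Dctn1 (2.42), Rtn4 (-1.95), Bckdhb (-2.09), Msmo1 (1.88) and Aldh1a1 (1.98) were among the genes that passed in both.

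Healthy deleted kidneys, from 26-week-old mice that were never operated, gave fewer shared calls. There 189 genes differed between the lines (1.47%), 46 of them as in the controls (24.3% of these calls and 2.68% of the control calls). Of the control calls 57.8% had the same sign there, beside 52% of all genes, with medians of 0.04 and -0.06. The difference between the controls' and the healthy deleted mice's line effects passed for 167 genes (1.3%), 139 of them among the control calls. Dctn1 differed by 0.24 in these healthy kidneys, Rtn4 by -0.01 and Msmo1 by -0.20, and none passed there. Xist was high in 3 of 3 healthy Twist-deleted mice (8.39 to 8.69) and in 0 of 3 healthy Snail-deleted mice (4.44 to 4.76), and with its level as a covariate 36 genes passed in place of 189. Age, cre, the deletion and surgery of the other kidney also differ between these sets, and they cannot be told apart. The same control mice's obstructed kidneys gave 2838 genes (22.1%), of which 961 were shared with the contralateral calls in the same direction.

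In all, 23 genes passed with the same sign in the controls' contralateral kidneys, the deleted mice's contralateral kidneys and the healthy deleted kidneys, 12 higher and 11 lower, and 19 of them passed in both obstructed comparisons too. The genes were chosen for passing in all 3 sets, so these values are a description. Tomm22 was lower by -3.85 in controls, -3.45 in deleted contralateral and -4.16 in healthy deleted kidneys. Dtd2 gave -3.06, -3.20 and -3.58, Timmdc1 -2.21, -2.57 and -2.64, Tm7sf3 -4.17, -3.20 and -2.81, and Gm5801 -1.41, -1.91 and -1.54, in the same order. As Tm7sf3 and Dtd2 were not detected in the Twist-line controls, their differences there hold only as bounds. Greb1 gave 3.14, 2.81 and 2.61, Pygb 2.38, 2.24 and 2.21, Cmss1 2.03, 2.04 and 2.12, Prune2 1.84, 1.56 and 2.55, and Serinc3, a membrane protein that restricts retroviruses in human cells, 1.40, 1.64 and 1.37. Mgat3, a glycosyltransferase, varied more, with -1.24, -1.33 and -2.17. Each of the first 10 genes kept its call in the controls without any 1 array except Gm5801, which did not pass without mouse 2 or mouse 8.

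**Figure D4:**
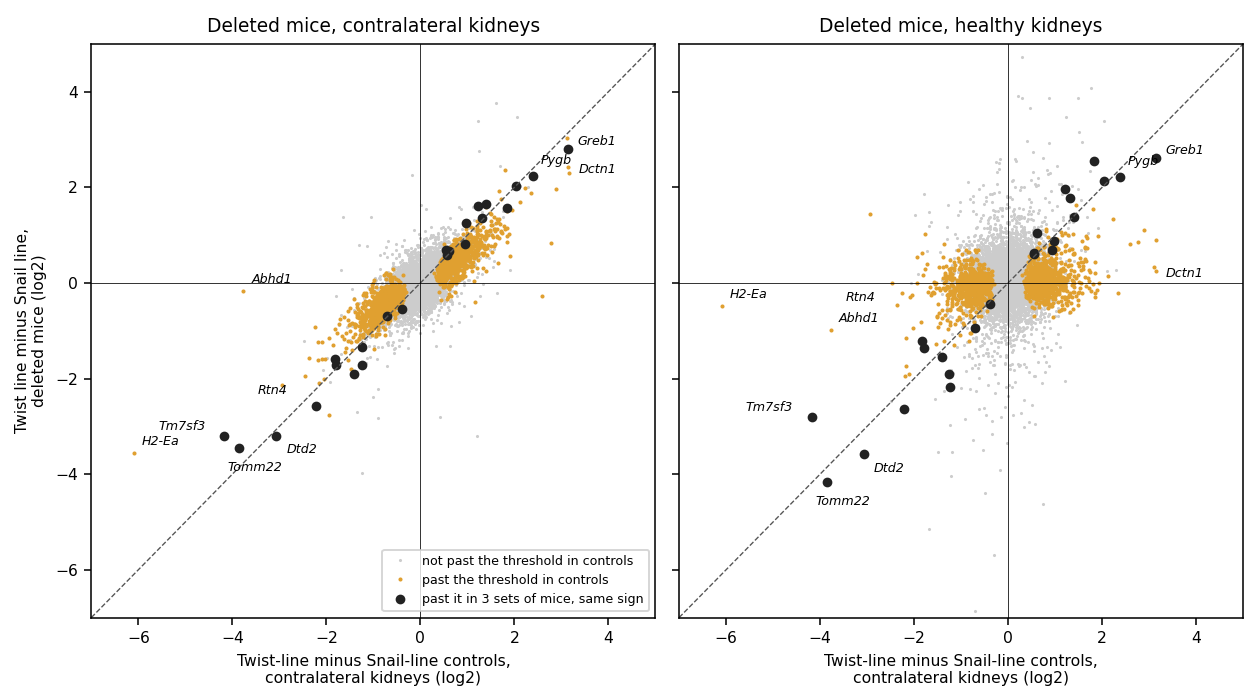
Line difference (log2, Twist line minus Snail line) of 12866 genes in control contralateral kidneys on the horizontal axis, against deleted contralateral kidneys (left panel) and deleted healthy kidneys (right panel) on the vertical axis, with a dashed line of equality. The 23 genes marked in black, chosen for passing with the same sign in all 3 sets, reach from -4.17 to 3.14 in the controls, while most of the 1717 control calls (orange) lie near 0 in healthy kidneys.

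Across every array of the lines, 28 genes separated all 16 Twist-line arrays from all 15 Snail-line arrays, obstructed and healthy kidneys included, 14 above and 14 below. Of these, 25 passed in the contralateral controls. The 6 control arrays were part of the selection, so this count is a description. Tomm22 ran from 5.52 to 6.67 in the Twist line and from 9.54 to 10.59 in the Snail line, a gap of 2.87. Dtd2 ran from 4.26 to 4.47 in the Twist line and from 6.33 to 8.11 in the Snail line. The 6 wild-type arrays lay on the Twist side for 15 of the 28 genes, as for Tomm22 (6.71 to 7.04) and Cmss1 (6.36 to 7.61). Dtd2 was an exception, at 6.89 to 8.11 in wild-type kidneys, within the range of the Snail line.

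Genes near the floxed loci were examined because a targeted chromosome segment travels with its allele. Chromosome 2, where Snai1 lies, held 8 of the 23 genes that passed in all 3 sets of mice (1017 of the 12866 tested genes lie on it), and 15.7% of its genes passed in the controls. The 8 were Cd59a, which shields cells from complement (1.32), Pygb, Zcchc3 (1.22), Eif2s2, a translation initiation factor subunit (-0.39), Rbm12 (0.97), Serinc3, Sys1, a Golgi protein (-1.79), and Mocs3, of molybdenum cofactor synthesis (0.94). A second Mocs3 probe went the other way (-0.56, SE 0.14, adjusted p = 0.00755 over all probes), and the mean of both probes did not pass (0.19, adjusted p = 0.319). Cd59a was tested gene 501 in chromosome order, the others were 750 to 941, and Snai1 was 932. Among 20 tested genes on either side of Snai1, 9 of 40 passed (22.5%, beside 13.3% overall), 5 higher and 4 lower in the Twist line. The higher ones were Trp53rka (1.33, SE 0.16), Mocs3, Znfx1 (0.87), Atp9a (0.85) and Zmynd8 (0.78), and the lower ones were Rnf114 (-1.03), Ptpn1, a phosphatase that turns off insulin signalling (-0.80), Spata2 (-0.63) and Cstf1 (-0.52). Trp53rka, Mocs3 and Znfx1 kept the call without any 1 array, the other 6 lost it without at least 1, and Zmynd8 lost it in each of the 6 fits. Its value is that of its brightest probe, and 2 other Zmynd8 probes, detected on all 6 arrays, gave 1.63 (SE 0.33, adjusted p = 0.00216 over all probes) and 1.83 (SE 0.33, adjusted p = 0.000939). Trp53rka differed by 0.31 in deleted contralateral kidneys and 0.37 in healthy deleted kidneys, and passed in neither. Around Twist1 on chromosome 12, 3 of 40 passed (7.5%). Twistnb, a subunit of RNA polymerase I, had 4.43, 4.30 and 4.73 in the Twist line and 6.46, 6.44 and 6.40 in the Snail line (at least 2.67-fold lower, adjusted p = 0.000145), and differed by -1.16 in deleted contralateral kidneys (adjusted p = 0.0356) and by 0.00 in healthy deleted kidneys. Sntg2, undetected in the Snail line, was at least 1.65-fold higher (0.99, SE 0.26) and Nampt, an enzyme of NAD synthesis, differed by -0.75 (SE 0.25), and the call of Nampt was lost without any 1 array, that of Sntg2 without mouse 2 or 10. Dtd2, Greb1 and Itgb1bp1 (0.56) of the 23 genes also lie on chromosome 12.

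Neither floxed gene itself passed the test. Twist1, a transcription factor of mesenchymal cells, had 4.84, 4.44 and 4.62 in the Twist line and 5.09, 4.66 and 5.48 in the Snail line (-0.44, SE 0.20, adjusted p = 0.153). Snai1, which represses epithelial genes, had 4.82, 4.92 and 4.46 in the Twist line and 5.17, 4.82 and 4.97 in the Snail line (-0.25, SE 0.27, adjusted p = 0.586). Each was detected on 0 of 3 Twist-line and 2 of 3 Snail-line arrays, so both lay at the limit of the array.

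Kidney segment genes differed in part. Of 20 measured collecting duct genes 5 were higher in the Twist line (25%, beside 7.27% of all genes) and 0 lower, with a list median of 0.53 and a summed level of 14514 to 19611 in the Twist line and 9007 to 11750 in the Snail line. Aqp4, the basolateral water channel, had 10.05, 8.71 and 8.21 in the Twist line and 6.79, 5.61 and 5.92 in the Snail line (7.38-fold higher, SE 0.78 on the log2 scale, adjusted p = 0.0148). Scnn1a, the alpha subunit of the epithelial sodium channel, had 10.78, 10.21 and 10.25 in the Twist line and 8.36, 9.06 and 8.91 in the Snail line (3.1-fold higher, adjusted p = 0.00044). All 3 Twist-line kidneys lay above all 3 Snail-line kidneys for both genes. Hsd11b2, which inactivates glucocorticoid in aldosterone target cells, was 2.04-fold higher (1.03, SE 0.30), Insrr, an alkali-sensing receptor, was 1.97-fold higher (0.98, SE 0.21), and Scnn1b, named after its value was seen, differed by 0.96 (SE 0.30). Aqp4 did not pass without mouse 1, nor Hsd11b2 without mouse 1 or 8. A second Hsd11b2 probe, detected on all 6 arrays, gave 0.47 (SE 0.41), and the mean of both probes did not pass (adjusted p = 0.13). Aqp2, the vasopressin-regulated water channel, differed by 1.04 (SE 0.71) and did not pass. In bulk kidney, more cells of a type and more RNA per cell cannot be told apart. The list's median was 0.52 in deleted contralateral and 0.52 in healthy deleted kidneys, where 1 and 0 members passed. Thick limb and distal tubule genes had a median of 0.32, with 0 of 19 past the threshold.

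Proximal tubule genes went both ways, with 2 of 45 higher and 5 lower (15.6% in all, beside 13.3%) and a median of -0.31. Anpep, a brush border aminopeptidase, was 3.02-fold higher (1.59, SE 0.34). It had 9.70, 9.67 and 7.84 in contralateral kidneys of cre-positive Twist-line mice 4, 6 and 7. The Anpep line difference was 0.29 in healthy deleted kidneys and did not pass there. Slc3a2, the heavy chain of amino acid exchangers, was 3-fold lower (-1.58, SE 0.31), Dab2, an adaptor of endocytosis, 1.52-fold lower (-0.61, SE 0.15), and Acmsd, of tryptophan breakdown, 2.79-fold lower (-1.48, SE 0.44). Other Dab2 probes, detected on all 6 arrays, gave -0.39 (SE 0.19) and 0.20 (SE 0.14), and the mean of its probes did not pass (adjusted p = 0.144). Of the fits without an array, Acmsd passed only in the one without mouse 9. Fatty acid oxidation genes were split as well, with 2 of 31 higher and 2 lower (12.9% in all, beside 13.3%). Ppargc1a, a coactivator of mitochondrial genes, had 11.22, 10.66 and 10.51 in the Twist line and 8.46, 9.45 and 9.26 in the Snail line (3.34-fold higher, adjusted p = 0.00279). Ppara, the fatty acid receptor that drives these genes, was 3.14-fold higher (1.65, SE 0.37), whereas the enzymes Hadh (-1.44, SE 0.23) and Acaa1a (-0.46, SE 0.13) were lower. In cre-positive Twist-line mice 4, 6 and 7, contralateral kidneys had 10.84, 10.62 and 9.15 for Ppargc1a and 7.25, 6.31 and 4.57 for Ppara. The line difference in healthy deleted kidneys was 0.23 for Ppargc1a and 0.98 for Ppara, and neither passed there. Of mitochondrial respiration genes 2 of 25 passed (8%, beside 13.3%), Sdhd at -1.20 (SE 0.37) and Nnt at 0.63 (SE 0.21). A second Nnt probe gave -0.38 (SE 0.16). Of 35 cytochromes P450, 4 were lower and 0 higher (11.4%, beside 6.07% of all genes lower and 13.3% in either direction). The 4 were Cyp2d12, Cyp1b1 (-1.19), Cyp20a1 (-0.99) and Cyp27a1, of bile acid and vitamin D metabolism (-0.72). Other Cyp27a1 probes, detected on all 6 arrays, gave -0.07 and -0.09, and the mean of its probes did not pass. Acaa1a, Sdhd, Nnt and Cyp27a1 each lost the call without 1 or more arrays, and Hadh, Ppara, Ppargc1a, Cyp1b1 and Cyp20a1 kept it in all 6 such fits.

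Of 23 macrophage and myeloid genes 3 were lower (13%, beside 6.07% of all genes), with a median of -0.47 and a summed level of 2947 to 4425 in the Twist line and 4178 to 7880 in the Snail line. Laptm5, a lysosomal protein of blood cells, differed by -0.81 (SE 0.27), the macrophage surface marker Adgre1 by -1.07 (SE 0.36), and the adaptor Tyrobp by -1.0 (SE 0.28). The arrays of the 2 lines overlapped for Adgre1 and Tyrobp, and all 3 passed in only 2 of the 6 fits without an array. The part of these cells in the lower class I signal was not tested. Of 44 interferon-stimulated genes only Gbp7 passed (0.70, SE 0.23, 2.27% of the list beside 13.3% of all genes), and the list's median was -0.06. Of 19 endothelial genes Pecam1 alone passed (-0.76, SE 0.25, 5.26% of the list). In the complement and coagulation list Cd59a (1.32) and Thbd (-1.40, SE 0.33) were the 2 of 34 past the threshold (5.88%), and in the extracellular matrix list Col8a1 (-1.77, SE 0.47) was the 1 of 33 (3.03%). Jund (1.13, SE 0.32), an AP-1 subunit, was the 1 of 20 immediate early genes that passed (5%), beside a list median of 0.65. In the renin-angiotensin list Anpep and Ctsa (-1.03, SE 0.30) were the 2 of 10 past the threshold (20%, beside 13.3% of all genes). Of these, Gbp7, Pecam1, Ctsa, Col8a1, Jund and Thbd each lost the call without 1 or more of the 6 arrays. Adgre1, Gbp7, Pecam1, Ctsa and Col8a1 did not pass with the mean of a gene's probes. Another Ctsa probe, detected on all 6 arrays, gave 0.63 (SE 0.23) and a further one -1.05 (SE 0.36), while undetected ones gave 0.10 and 0.16.

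Several lists had 0 members past the threshold: 22 glutathione S-transferases, 20 conjugating transferases and carboxylesterases, 13 kallikreins, 24 organic ion transporters, 9 podocyte, 6 B cell, 14 T and NK cell, 8 blood, 11 adipose, 23 tubular injury, 36 chemokine and cytokine, and 23 sex-dimorphic kidney genes. At an unadjusted p under 0.05, 3619 of all genes passed with limma. Of 37 measured genes known to vary between inbred strains, 2 passed (5.41%, beside 13.3%), Nnt, a mitochondrial transhydrogenase whose gene lacks exons in C57BL/6J mice (5.86, 5.48 and 5.52 in the Twist line, 4.43, 5.40 and 5.15 in the Snail line), and Klra2, a killer cell receptor (0.40, SE 0.14), detected on 1 of 3 Twist-line and 0 of 3 Snail-line arrays. Each kept the call in 1 of the 6 fits without an array. A second Nnt probe, detected on 0 of 3 Twist-line and 2 of 3 Snail-line arrays, went the other way (-0.38, SE 0.16). Nnt passed under 4 of the 9 other alternatives and did not pass with the mean of its probes. The adipose list had a median of 0.77, with the lipid droplet gene Cidea detected on 1 Twist-line and 0 Snail-line arrays.

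**Figure D5:**
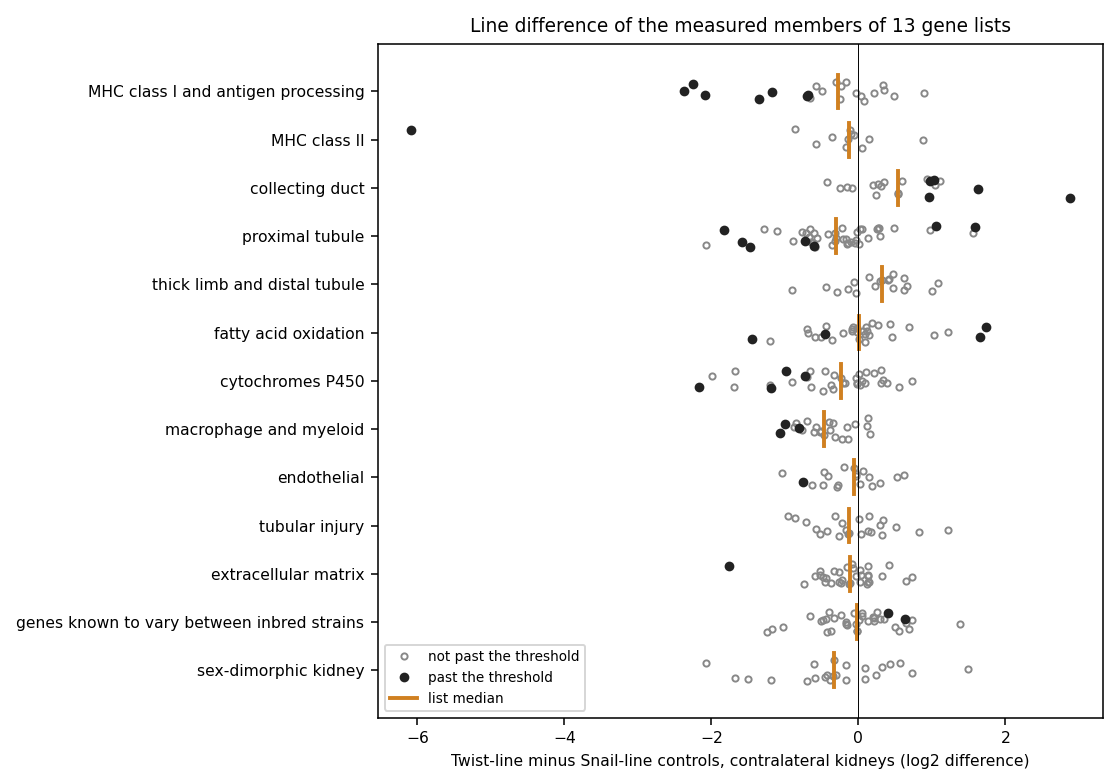
Line difference (log2, Twist line minus Snail line, contralateral controls) of each measured member of 13 gene lists, with members past the threshold filled and the list median as a vertical bar. The 7 filled class I genes lie left of 0, the 5 filled collecting duct genes lie right of 0, and H2-Ea stands alone at -6.09 in the class II list.

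The called genes also differed in length, a feature the comparison did not use. The median genomic span was 34.25 kb for genes higher in the Twist line, 15.75 kb for genes lower in it, and 21.61 kb for the remaining genes. With the tested genes cut by span into 4 equal bins, shortest first, the share that was higher in the Twist line was 4.29%, 6.54%, 7.13% and 11.1%, and the share that was lower was 7.78%, 7.25%, 5.66% and 3.61%. The 23 genes that passed in 3 sets of mice had a median span of 20.23 kb. The median difference was -0.05 in the shortest bin and 0.07 in the longest, in deleted contralateral kidneys -0.03 and 0.05, and in healthy deleted kidneys 0.02 and 0.01. RNA quality values of single samples were not used here, and their part was not tested.

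The change of the line difference between obstructed and contralateral kidneys of the controls, a contrast within mice, passed for 5 genes without a pairing term (0.0389%, limma, and 1259 at an unadjusted p under 0.05). With mouse as a random block it passed for 54. Rrbp1, a ribosome receptor of the endoplasmic reticulum on chromosome 2, differed by 0.15 (SE 0.12) in contralateral kidneys (10.20, 10.11 and 10.21 in the Twist line, 9.97, 9.97 and 10.15 in the Snail line) and lower by -0.93 in the Twist line's obstructed kidneys (8.62, 8.90 and 8.53, against 9.42, 9.79 and 9.61 in the Snail line). These are values of the brightest Rrbp1 probe, and the other 2 differed by 0.81 (SE 0.35) and 0.89 (SE 0.28, adjusted p = 0.0345 over all probes) in contralateral kidneys. The other 4 were Ear10, Naxe, Rab3il1 and Dhx34. The next gene by p, Lrat, which stores retinol as ester, was at least 1.5-fold higher in the Twist line's contralateral kidneys (0.97, SE 0.18) and differed by -0.25 in obstructed kidneys, and its change did not pass.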

How the data were processed

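Total RNA of adult mouse kidneys was hybridised as biotin-labelled cRNA to Illumina bead arrays, per the labels' protocols. GenomeStudio 5.0 is the tool in the submitters' processing notes. The deposited table holds, per the file headers, an average intensity for every probe on every array with its detection p-value. Intensity values in the authors' series matrix are those signals rescaled linearly (r = 1, scale 0.725 to 1.2) in a way that is not stated. The genome build is not given in the sources used here.

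From the deposited intensities of all 37 arrays, log2 levels were made with limma's neqc, which corrects background and applies quantile normalisation (versions 3.58.1 of limma and 4.3.3 of R, offset 16). The array has 45281 probes. A single symbol was given for 34885, several for 18 and none for 10378, and 34852 were matched in the RefSeq gene table. Probes with a detection p under 0.05 on at least 3 arrays were kept (24544), and a gene was represented by its brightest kept probe (12866 genes, 12855 in the table). A model of 12 group means was fitted with limma to all 37 arrays, without a pairing term, with moderated two-sided tests, Benjamini-Hochberg adjustment over all genes and a threshold of 0.05. Columns matched to no sample numbered 0, and 0 columns were identical. The number of arrays limits the precision. Kidneys were assigned to mice by the animal number in the sample titles. Residuals of the 2 kidneys of a mouse correlated at 0.171 to 0.63 in 12 mice. Kidneys of different mice were not compared in this way, so these values do not test the pairing. The control groups compared hold different mice.

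The groups, gene lists and named-gene rule were chosen with earlier results of these data known. Named genes were the 15 largest non-overlapping differences in each direction, up to 4 per list, all class II genes, the floxed genes and their called neighbours, genes shared by 3 sets of mice, the lowest interaction p-values, genes with discordant probes, and Xist. Alternatives changed the background correction, source table, detection filter, probe choice, arrays in the model, mouse block, Xist covariate and array weights, and left out each array. The test was checked on simulated data.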

Additional observations from a re-analysis of the deposited data

Results flagged for a closer look

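The line difference itself differed between obstructed and contralateral kidneys of the control mice in 5 genes, by a test of that difference (limma, Benjamini-Hochberg adjusted) without a pairing term, and in 54 with mouse as a random block. Rrbp1 changed by -1.07 (SE 0.18, adjusted p = 0.018), with a line difference of -0.93 in obstructed and 0.15 in contralateral kidneys, where its 2 other probes gave 0.81 and 0.89. Rab3il1, a guanine nucleotide exchange factor, changed by 1.07 (SE 0.20, adjusted p = 0.0399), with levels of 5.91, 5.76 and 5.84 in Twist-line and 5.78, 5.25 and 5.61 in Snail-line obstructed kidneys and of 5.49, 5.72 and 5.86 in Twist-line and 6.59, 6.32 and 6.49 in Snail-line contralateral kidneys. Naxe, a repair enzyme of damaged NADH, changed by -0.68 (SE 0.13), with -0.39 in obstructed and 0.29 in contralateral kidneys, and its second probe gave -1.06 in contralateral kidneys. Ear10, an eosinophil-associated ribonuclease, changed by -1.73 (SE 0.33). It was detected in 0 of 6 contralateral control kidneys and stood at 4.97, 4.63 and 4.94 in Twist-line and 6.05, 6.92 and 7.12 in Snail-line obstructed kidneys. Dhx34, an RNA helicase, changed by 1.13 (SE 0.22), with 0.32 in obstructed and -0.81 in contralateral kidneys. These 5 genes share the adjusted p of 0.0399, apart from Rrbp1. Groups of 3 arrays were too small for a check of single outlying samples.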

How the results depend on the processing

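The number of genes differing between control contralateral kidneys, 1717, was 1634 to 2210 under 8 of the 9 alternatives, and 743 with only the arrays of the compared groups. It was 726 to 1655 without 1 array. With only the compared arrays, 7 genes were shared with the deleted contralateral kidneys (176 in the main model), 8 passed in deleted contralateral, 1639 in obstructed control and 1312 in healthy deleted kidneys, 5 passed in 3 sets of mice, and 0 line differences changed with obstruction (1259 passed an unadjusted p under 0.05 in the main model). Array weights gave 1112 shared genes, 1630 in deleted contralateral, 2084 in healthy deleted, 138 in 3 sets and 25 that changed with obstruction. With Xist as a covariate the counts were 295 shared, 390 in deleted contralateral and 36 in healthy deleted kidneys. With mouse as a random replicate block (consensus correlation 0.233), 54 line differences changed with obstruction, and no other count moved by over 1.5 times. That number was 2 with the series matrix values and 0 with the mean of a gene's probes. Without 1 array, the count shared with deleted contralateral kidneys was 135 to 181, that in 3 sets 18 to 26, and that changing with obstruction 0 to 3. The causes were not tested. The share of calls higher in the Twist line was 50.9% to 57.9% over the 9 alternatives, beside 54.5%.

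Of 82 named genes that passed, 33 passed under every alternative, 43 in all 6 fits without an array, and 5 in none of the 6 (Abhd1, H2-K1, H2-Q6, Nampt and Zmynd8). Naxe reversed to -0.39 (adjusted p = 0.0754) with the mean of its 2 probes. With Xist as a covariate all 82 passed, and with only the compared arrays 55 did. Genes at the array floor have only bounds on their folds.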
